A study of Mus musculus with 4 samples.

Results

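Of 19204 distinct promoter regions, 486 (2.53%) were linked to 3 or more distal regions by co-accessibility. They are called member promoters below. Each region was 1000 bases wide, and a link was a pair of a promoter and a distal region whose co-accessibility score in the authors' deposited table was above 0.25, with each pair counted once. A further 996 promoters had 1 link, 369 had 2, and 17353 had none. The nuclei came from the mammary gland of wild-type CD1 mice, an outbred laboratory strain, and were profiled by single-nucleus ATAC-seq, in which a transposase cuts and tags open chromatin. Cells had been sorted as EpCAM+ and Lin-, a gate for epithelium, from fetuses at E18 (2 libraries) and from adults at 8 weeks (2 libraries). The labels call the libraries biological replicates and do not say how many animals each one holds. The authors placed the nuclei in 14 numbered classes.

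A promoter is the stretch of DNA at which transcription of a gene starts, and distal regions can hold enhancers, which act on promoters over long distances. Co-accessibility asks whether 2 regions tend to be open in the same nuclei. It is used to propose which distal region may act on which promoter, and it measures no physical contact. The adult mammary duct has an outer basal layer of contractile myoepithelial cells and an inner luminal layer with 2 main populations, luminal progenitors and hormone-sensing mature luminal cells. The fetal gland is a small rudiment whose cells have not yet completed this separation.

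The sequences of 7 member promoters on which the results turn are shown, from 250 bases before to 50 bases after the transcript start in the RefSeq table of GRCm38.p6. Capitals mark matches on either strand to short motif words. The words were TGANTCA for AP-1, TATAAA for the TATA box, TGTTTAC for FOX, AACAAT for SOX, GGAATG for TEAD, GGGCGG for the GC box, CCGGAA for ETS, GCCNNNGGC for AP-2 and AGATAA for GATA. Emp1 had the most links, and its promoter lies at chr6:135362681-135362980 on the plus strand:
Emp1: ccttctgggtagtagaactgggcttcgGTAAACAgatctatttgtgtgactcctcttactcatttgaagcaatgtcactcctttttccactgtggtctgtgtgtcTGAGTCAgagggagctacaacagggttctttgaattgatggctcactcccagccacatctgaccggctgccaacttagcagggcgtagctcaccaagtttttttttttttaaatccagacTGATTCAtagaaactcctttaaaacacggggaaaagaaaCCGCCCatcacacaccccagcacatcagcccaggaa
Sox11 was among the largest fetal rises, and its promoter lies at chr12:27342669-27342968 on the minus strand:
Sox11: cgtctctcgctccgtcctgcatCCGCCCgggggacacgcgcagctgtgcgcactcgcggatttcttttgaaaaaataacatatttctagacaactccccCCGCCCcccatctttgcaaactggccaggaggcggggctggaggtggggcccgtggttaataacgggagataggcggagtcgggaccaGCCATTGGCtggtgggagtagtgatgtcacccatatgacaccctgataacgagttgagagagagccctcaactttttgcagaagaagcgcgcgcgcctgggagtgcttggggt
Cxcl14, Kit and Areg were high in the basal-like, the luminal progenitor-like and the mature luminal-like adult classes respectively. Their promoters lie at chr13:56296502-56296801 (minus strand), chr5:75574737-75575036 (plus) and chr5:91139349-91139648 (plus):
Cxcl14: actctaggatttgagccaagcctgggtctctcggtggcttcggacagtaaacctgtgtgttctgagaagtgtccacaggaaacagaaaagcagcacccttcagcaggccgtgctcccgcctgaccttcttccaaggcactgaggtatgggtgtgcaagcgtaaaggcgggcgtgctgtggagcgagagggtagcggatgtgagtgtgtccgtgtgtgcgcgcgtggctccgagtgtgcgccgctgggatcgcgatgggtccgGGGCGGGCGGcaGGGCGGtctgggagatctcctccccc
Kit: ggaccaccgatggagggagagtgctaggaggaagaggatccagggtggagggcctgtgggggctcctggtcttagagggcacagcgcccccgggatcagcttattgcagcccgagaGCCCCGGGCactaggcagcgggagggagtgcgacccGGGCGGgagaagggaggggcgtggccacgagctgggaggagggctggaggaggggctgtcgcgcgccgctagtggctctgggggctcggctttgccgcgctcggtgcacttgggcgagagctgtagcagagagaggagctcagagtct
Areg: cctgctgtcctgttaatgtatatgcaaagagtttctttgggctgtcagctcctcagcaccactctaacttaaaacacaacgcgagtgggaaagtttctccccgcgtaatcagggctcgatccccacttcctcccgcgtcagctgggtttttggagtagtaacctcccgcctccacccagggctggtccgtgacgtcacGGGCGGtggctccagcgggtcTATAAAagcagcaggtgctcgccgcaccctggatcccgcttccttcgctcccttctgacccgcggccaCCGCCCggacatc
Cldn3 was open in both luminal populations and Lcn2 had the highest single score. Their promoters lie at chr5:134985964-134986263 (plus) and chr2:32387690-32387989 (minus):
Cldn3: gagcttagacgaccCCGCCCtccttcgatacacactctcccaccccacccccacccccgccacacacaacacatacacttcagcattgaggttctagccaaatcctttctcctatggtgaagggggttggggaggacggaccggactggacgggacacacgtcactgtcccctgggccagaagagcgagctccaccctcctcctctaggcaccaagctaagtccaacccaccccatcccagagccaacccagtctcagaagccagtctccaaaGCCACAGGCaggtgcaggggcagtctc
Lcn2: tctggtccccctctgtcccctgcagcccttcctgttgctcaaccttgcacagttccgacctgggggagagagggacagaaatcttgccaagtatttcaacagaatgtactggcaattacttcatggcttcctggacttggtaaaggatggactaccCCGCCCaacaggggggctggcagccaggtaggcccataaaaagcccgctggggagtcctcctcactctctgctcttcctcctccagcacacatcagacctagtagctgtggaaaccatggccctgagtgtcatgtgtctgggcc
The Emp1 sequence held 2 AP-1 words, at positions -145 and -25 from the transcript start, and a FOX word at -223. The Areg sequence held a TATA box at -31, and the Cxcl14 sequence held 3 GC boxes after the start, 2 of them overlapping. These are matches of letters, not measured binding sites.

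Sequence was matched for 210 member promoters, those whose region held a listed transcript start, and for 9582 of all 19204 promoters. Low CpG content was more frequent among the members: the ratio of observed to expected CpG was under 0.5 in 32.9% of them and in 20.2% of all matched promoters. The median ratio was 0.66 and 0.75, while the median GC content was 61.7% and 61.3%. The AP-1 word occurred in 10.5% of members and 5.66% of all, and the FOX word in 5.24% and 2.64%. The ETS word, frequent in promoters of broadly expressed genes, occurred in 17.1% of members and 26.0% of all, and the GC box in 65.2% and 66.2%. The remaining words occurred in 10.0% of members and 6.95% of all (TATA box), 4.76% and 5.54% (SOX), 13.3% and 11.5% (TEAD), 26.2% and 25.9% (AP-2), and 6.19% and 5.78% (GATA). These shares are descriptions without a test.

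Most member promoters were only a few links above the threshold: 181 had exactly 3 and 97 exactly 4, the median was 4, and 37 had 10 or more. The cutoff admitted Fam83b with a third-highest score of 0.250194 and left out a region in Ehf at 0.249883. Likewise Sowahb (0.250294), Cyp1b1 (0.250407) and Cyth1 (0.250432) lay just inside, and Mien1 (0.249873), Rnase10 (0.249097) and Atp2b1 (0.249097) just outside. Together the members had 2439 links to 2011 distinct distal regions, out of 4173 links of all promoters. A link was rare in the table: 0.321% of its 1300467 pairs of a promoter and a distal region passed 0.25. Scores of the members' links ran from 0.2501 to 0.707, with a median of 0.317.

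**Figure D1:**
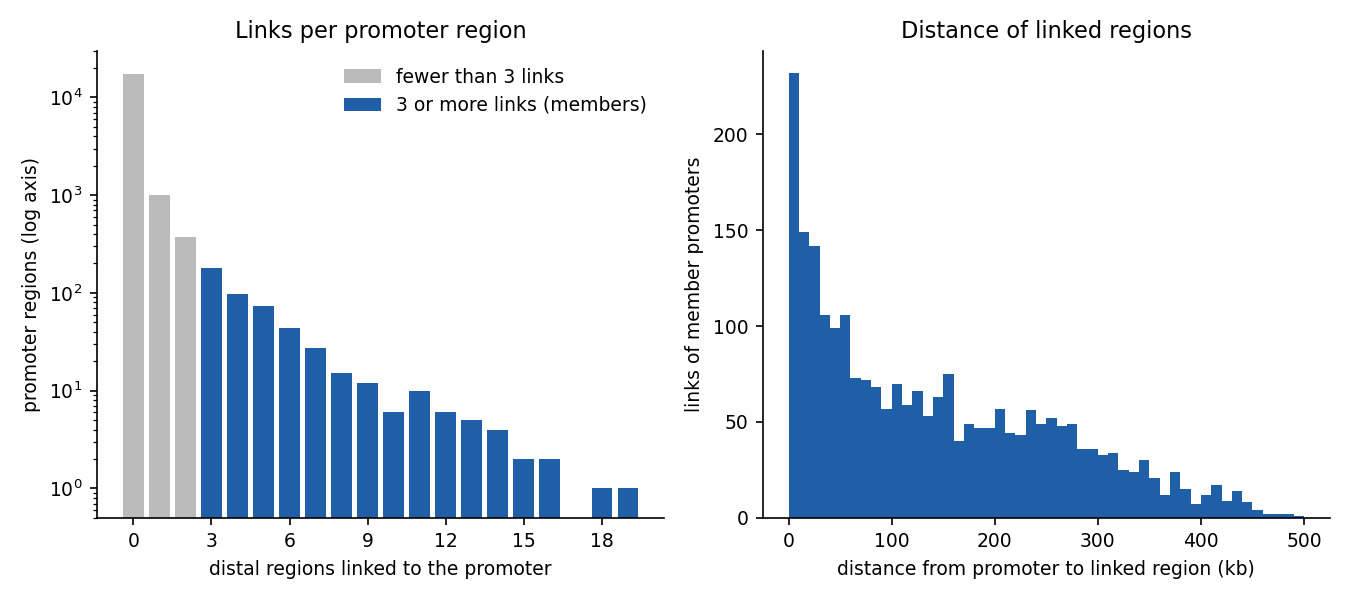
Left, number of promoter regions (log axis) by the number of distal regions linked to them, with the 486 members in blue; right, number of members' links by distance in bins of 10 kb. Most promoters had no link, and links were most frequent close to the promoter but reached almost 500 kb, near the limit of the listed pairs.

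Linked regions lay at a median distance of 117 kb from the promoter, with quartiles of 38.1 and 233 kb and a maximum of 492 kb. All pairs listed for these promoters had a median distance of 173 kb. Within 10 kb lay 9.51% of the links, against 3.30% of all pairs of the members, and 54.7% of the links spanned more than 100 kb. No listed pair of any promoter spanned more than 501 kb, so a longer link could not appear. How the score treats distance is not given, so these distances describe the score and its list of pairs. In 65.5% of the links at least 1 other promoter region lay in between. For the members with a known direction of transcription, 43.9% of 1033 links ran upstream.

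Members also lay in denser surroundings and had more reads than other promoters, and the part of these in the number of links was not tested. The median number of distal regions within 250 kb was 58 for members and 47 for other promoters, and the median number of listed pairs was 82 and 68. The median number of reads over all nuclei was 590.5 for members (range 63 to 5325) and 426 for other promoters. No member lay on chromosome X, which held 566 promoters. On that chromosome 5 of 14633 pairs (0.0342%) passed the cutoff, and its promoters had a median of 329.5 reads, against 440 elsewhere.

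A gene was assigned to each region by a listed transcript start inside it (210 members, 43.2%, against 49.9% of all promoters), otherwise by the span of a gene (217 members), otherwise by the nearest gene (59 members). Regions assigned by span or nearest gene hold no listed transcript start. Below, those by span include R3hdml, Rnf224, Tnni1, Kcnq5, Xylt1, Psd3, Rasal1, Cldn9, Ppfibp1, Masp1, Dpt, Irx4, Foxa1 and Wdr64. Of the 210 transcript starts, 47 lay more than 500 bases from the outer end of the gene and may belong to a shorter transcript. The members fell on 462 genes, and 23 genes had more than 1 member. Pgr, the progesterone receptor, had 3, all beyond the 3′ end of the gene, at 1.25, 2.57 and 3.73 kb from it, so their gene is named by position alone. Regions were also shared between members: 318 distal regions were linked to 2 or more of them, and 1 distal region to as many as 5. By shared distal regions, 201 members fell into 74 groups, and 285 stood alone.

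The largest group held 11 members on chr10:79914787-81379116, joined by 40 links to 23 distal regions. It included Stk11, a kinase that activates AMPK, Cirbp, a cold-induced RNA-binding protein, Oaz1, an inhibitor of polyamine synthesis, and Map2k2, a kinase of the ERK cascade. A group of 4 on chr15:101941579-102406348 held Krt8 and Krt18, the paired keratins of simple epithelia, with Krt79 and Sp1, and had 21 links to 9 distal regions. A group of 6 around Lcn2 on chr2:32379781-32713475 had 25 links to 12 distal regions. Members of a group share their distal regions, so they are not independent of each other.

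The lists of mammary genes show which functions the member promoters touched. Of 15 basal genes, 4 had a promoter region at a listed transcript start, and 2 of these (Krt14 and Sparc) were members. Of 15 luminal progenitor genes it was 4 of 8 (Kit, Lcn2, Wfdc18 and Spdef), and of 15 mature luminal genes 1 of 9 (Areg). Among genes shared by luminal cells it was 4 of 6 (Krt8, Krt18, Cldn3 and Cldn4), and among fetal and oncofetal genes 2 of 5 (Sox11 and Hmga2). Extracellular matrix and adhesion genes gave 4 of 8 in 3 regions (Col4a1 and Col4a2, which share 1 region, Col17a1 and Cd44), AP-1 and immediate early genes 1 of 9 (Maff), and signalling genes 1 of 9 (Egfr). None of the 2 milk protein genes and none of the 14 ubiquitous genes with such a region was a member. Over all promoters with a listed transcript start, 2.19% were members. Counting regions in the span of a listed gene as well, chosen after the values were seen, added Krt5, Krt17, Cdh3, Lgr5 and Oxtr among basal genes, Foxa1, Wnt4 and Tbx3 among mature luminal genes, Sox10, Mfge8, Wnt10a and Lamb3.

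Reads of the kept nuclei were summed per library, from 6028168 reads in fetal replicate 1 to 19304830 in adult replicate 2, over 882 to 2804 nuclei, and no barcode was shared between libraries. By markers, classes 1, 4 and 8 were basal-like, classes 3, 5, 7 and 9 luminal progenitor-like, classes 2 and 11 mature luminal-like and class 6 stromal-like, while 10, 12, 13 and 14 were left unnamed. The names rest on reads over the whole gene, promoter included, of markers such as Krt14 (basal), Kit (luminal progenitor), and Pgr, Foxa1 and Wnt4 (mature luminal). The levels of these genes in the named classes are therefore part of the naming and are given as descriptions. Krt8, Krt18, Cldn3 and Cldn4 were scored as general luminal markers, which decided no name. Of the stromal markers, 7 of 7 were raised in class 6 and 0 to 3 of 7 in the other classes. Between 0 and 3 of 7 immune and 0 to 3 of 6 endothelial markers were raised in a class. Classes 4, 5, 9, 12 and 13 were almost wholly fetal and classes 1, 2, 3, 7, 8, 10, 11 and 14 almost wholly adult. In a sum over nuclei, fewer nuclei of a type and less accessibility per nucleus cannot be told apart. Each library holds 1 stage, so stage and library preparation cannot be told apart. Levels are given as CPM. For libraries and adult class pairs these are reads scaled to the total in tested promoter regions times the TMM factor (0.984 to 1.01), and for single classes to the plain total in all promoter regions. The authors' score comes from nuclei of these same libraries, so the counts of members called below describe them and lend no support to the links.

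Between the stages, 113 member promoters were higher in fetal and 221 higher in adult libraries, with all 486 tested by edgeR's quasi-likelihood test (adjusted p under 0.05). Over all 18570 promoters tested the share called was 21.5%, made up of 10.5% higher in fetal and 11% higher in adult. Among promoters with 1 or 2 links, 46.7% were called, and among those with none 18.1%, against 68.7% of the members. Choosing by a score from these nuclei favours regions whose openness varies among them, and members also had more reads. The order of these shares is therefore no result about linked promoters, and the part of each was not tested. The members' median log2 fold change, fetal over adult, was -0.32 and the median of its size 0.83, against 0.00 and 0.33 over all promoters. The fetal and adult libraries did not overlap at 395 members (81.3%), as at 59.7% of all tested promoters. Members held 2.99% and 2.93% of the promoter reads in fetal replicates 1 and 2, and 3.25% and 3.16% in adult replicates 1 and 2.

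**Figure D2:**
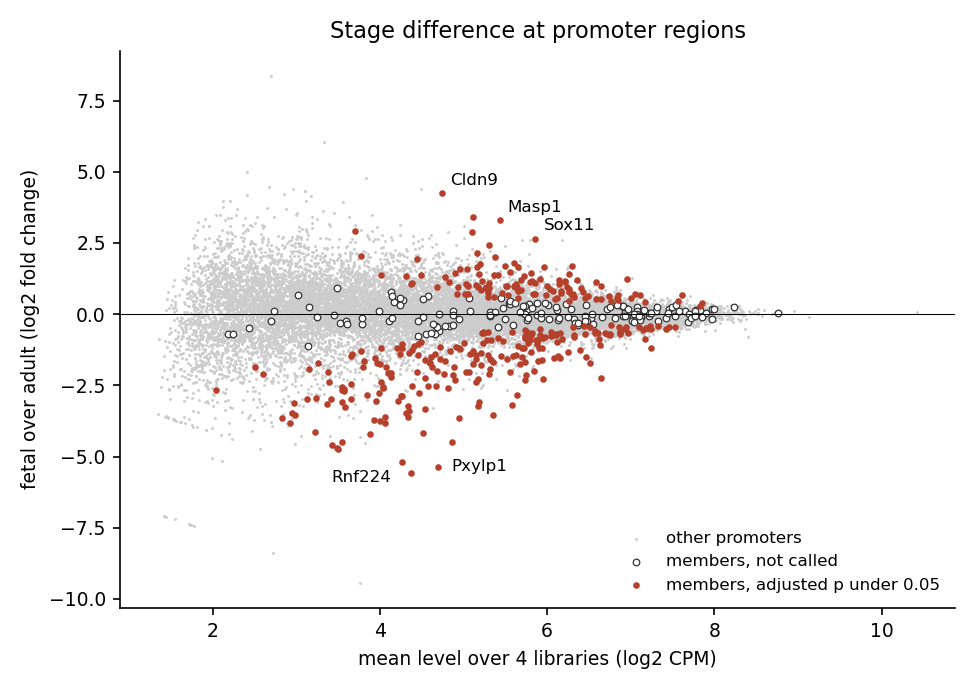
Each point is a promoter region, by its mean level over the 4 libraries (log2 CPM) and its log2 fold change, fetal over adult; filled red points are members called by edgeR and open points members not called. Called members lie on both sides, with Cldn9 at 4.24 as the highest and Rnf224 at -5.59 as the lowest of those labelled.

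Emp1, which encodes a tetraspan membrane protein of epithelia, had 19 links, more than any other promoter. Its region (chr6:135362142-135363141) had 101 and 100.4 CPM in the fetal libraries and 132 and 154 CPM in the adult libraries. Both adult values exceeded both fetal values, and the log2 fold change was -0.52 (SE 0.13, edgeR adjusted p = 0.00311). The call was lost without fetal replicate 2 (edgeR adjusted p = 0.0535) and without adult replicate 2 (0.0847). The 19 distal regions lay 5.71 to 347 kb away and each of them had a lower level in fetal than in adult libraries, with a median log2 ratio of -1.66. The region with the highest score, 0.435, lay 10.8 kb downstream within the span of the gene. Of the 19, 12 were at their highest in class 2, as was the promoter itself, at 203 CPM.

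**Figure D3:**
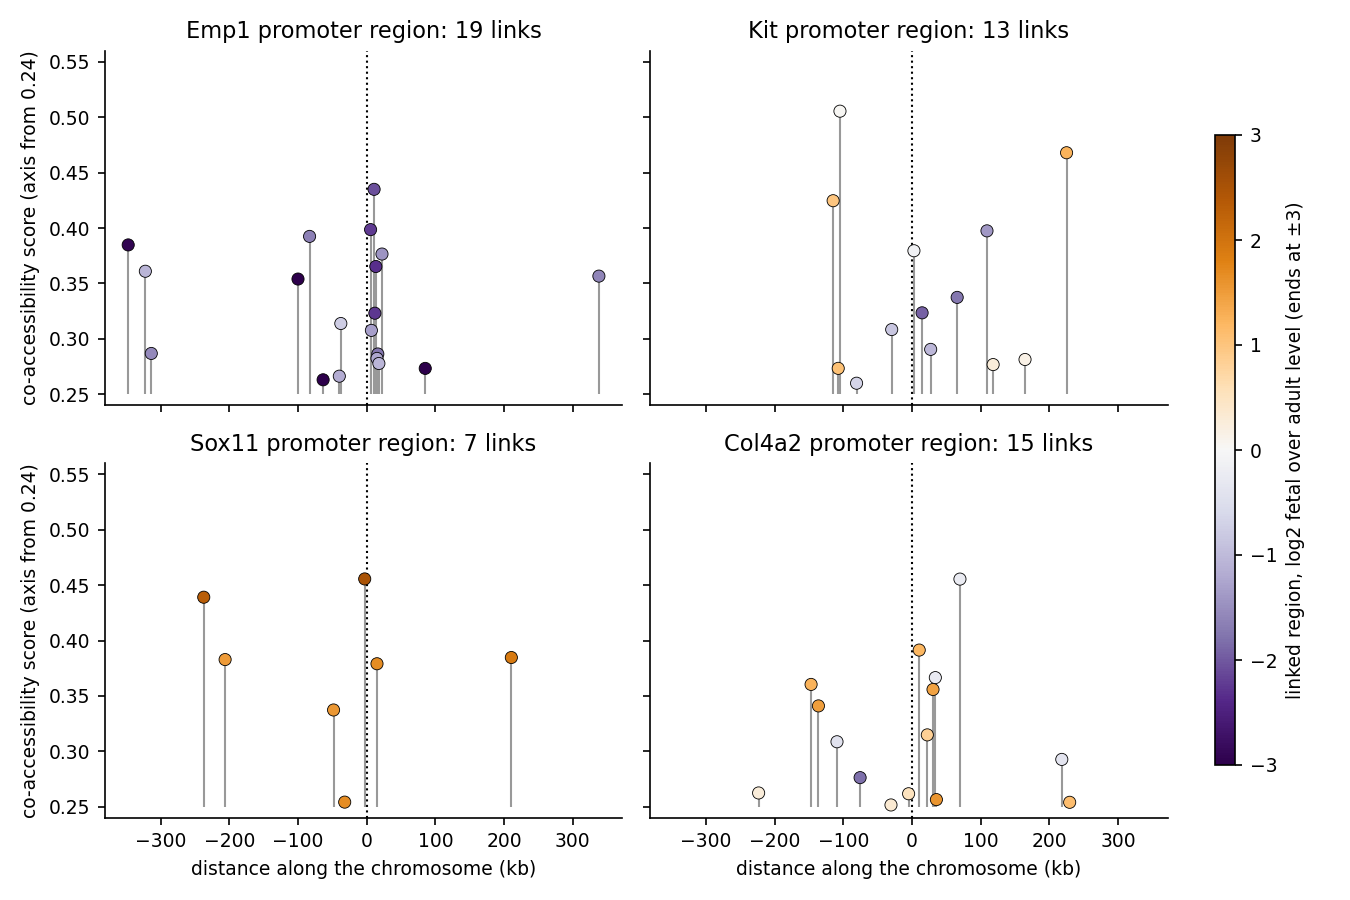
Linked distal regions of 4 member promoters by distance along the chromosome (kb, promoter at 0) and co-accessibility score (axis from 0.24), coloured by the log2 ratio of fetal to adult level. All 19 regions of Emp1 are purple (higher in adult), all 7 of Sox11 are orange (higher in fetal), and Kit and Col4a2 have both.

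Of the 3 regions beyond the 3′ end of Pgr, 2 were among the most linked, with 18 and 15 links. In the first (chr9:8972346-8973345) the fetal libraries had 0 and 1.42 CPM, from 0 and 5 reads, and the adult libraries 43.0 and 32.3 CPM. The second had 1.37 and 2.84 CPM in fetal and 40.0 and 47.1 CPM in adult libraries. The stages were far apart in both, with log2 fold changes of -5.19 (SE 0.48, edgeR adjusted p = 2.40e-13) and -4.18 (SE 0.38, edgeR adjusted p = 1.48e-13). Without fetal replicate 2 the first had 0 fetal reads left, so that its size could not be given, and the second had -4.95. The third region, with 6 links, had 0 and 1.13 CPM in fetal and 21.2 and 22.8 CPM in adult libraries. The linked regions of the first 2 lay up to 414 kb away, and all 18 and all 15 were higher in adult libraries. Most of the 15 were also among the 18, so the 2 counts are not independent.

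A region 0.585 kb outside the span of Pxylp1, a phosphatase of proteoglycan linker sugars and its nearest gene, had 16 links. Its levels were 1.37 and 1.14 CPM in fetal and 48.5 and 53.0 CPM in adult libraries, a difference of -5.35 on the log2 scale (SE 0.41, adjusted p = 1.82e-16 by edgeR). R3hdml had 14 links, with 10.3 and 5.11 CPM in fetal and 67.5 and 61.0 CPM in adult libraries (log2 fold change -3.23, SE 0.29, and -2.63 without fetal replicate 2). A region in the span of Scnn1a, an epithelial sodium channel subunit, had 14 links, with 18.5 and 26.1 CPM in fetal and 90.6 and 94.2 CPM in adult libraries (log2 fold change -1.98, SE 0.20). In each of these 3 the groups did not overlap, and all 16, 14 and 14 linked regions were also higher in adult libraries. Over all called members, 93.2% of 1758 links had the same sign at both ends, which the choice of co-accessible pairs favours. That limit applies to every count of linked regions by stage given here, and unlinked pairs were not counted.

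The others of the 10 members with the most links were higher in fetal libraries or did not pass the test. Col4a2, a collagen IV chain of the basement membrane whose region also holds the start of Col4a1, had 15 links. Its levels were 73.4 and 79.7 CPM in fetal and 32.4 and 37.0 CPM in adult libraries (log2 fold change 1.14, SE 0.19, edgeR adjusted p = 3.96e-06). Cxcl14, an epithelial chemokine, had 14 links, with 90.5 and 67.5 CPM in fetal and 23.3 and 45.2 CPM in adult libraries (log2 fold change 1.15, SE 0.21, edgeR adjusted p = 2.31e-05; DESeq2 adjusted p = 0.0968). Both adult values lay below both fetal values at each gene, while the linked regions were mixed: 10 of 15 at Col4a2 and 6 of 14 at Cxcl14 were higher in fetal libraries. Tnni1, a troponin subunit gene, had 14 links and levels of 48.7 and 66.4 CPM in fetal and 57.8 and 63.3 CPM in adult libraries, which overlapped. The non-coding 3930402G23Rik had 16 links, with 17.1, 15.9, 17.9 and 36.7 CPM from fetal replicate 1 to adult replicate 2 (edgeR adjusted p = 0.0703). Only the library sum of adult replicate 2 stood high. By class, adult replicates 1 and 2 were closer, at 123 and 154 CPM in class 1 and 97.0 and 105 CPM in class 8. Classes 1 and 8 held 201 and 134 of 2465 nuclei in adult replicate 1, and 418 and 297 of 2804 in adult replicate 2. The part of these nuclei in the sums was not tested.

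The largest fetal rises were at regions in or next to Cldn9, Ppfibp1, Masp1, Enox1 and Sox11. In Cldn9, a tight junction claudin, the levels were 52.1 and 49.4 CPM in fetal and 2.12 and 3.06 CPM in adult libraries (log2 fold change 4.24, SE 0.35, edgeR adjusted p = 3.03e-15). Sox11, a SoxC transcription factor of embryonic tissues, had 101 and 99.6 CPM in fetal and 15.4 and 16.2 CPM in adult libraries (log2 fold change 2.65, SE 0.20, edgeR adjusted p = 1.82e-16). The fetal libraries of each gene were close to each other and lay far above the adult ones. The regions of Ppfibp1, a liprin, Masp1, a protease of the complement lectin pathway, and Enox1 had log2 fold changes of 3.41, 3.31 and 2.88. In all 5 genes every linked region was higher in fetal libraries: 4 at Cldn9, 5 at Ppfibp1, 8 at Masp1, 5 at Enox1 and 7 at Sox11. The choice of co-accessible pairs favours this, as these promoters were picked for their rise. The Sox11 links reached 237 kb with no other promoter region in between.

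Within the fetal libraries these rises did not follow 1 class. Sox11 had 89.6 and 104 CPM in class 9, 120 and 90.1 CPM in class 5 and 49.5 and 114 CPM in class 4, in fetal replicates 1 and 2. The ranges of these 3 classes overlapped, and class 12, at 196 and 83.8 CPM, overlapped them too. The stromal-like class 6 was above classes 4, 5 and 9, at 230.5 and 177 CPM, from 8 and 14 reads. Cldn9 had 106 and 97.4 CPM in class 5, above 43.4 and 55.4 CPM in class 9 and 19.8 and 26.8 CPM in class 4, with no overlap among the 3. Ppfibp1 was at 75.2 and 97.4 CPM in class 5 and 74.2 and 97.0 CPM in class 4, at 117 and 94.3 CPM in class 12, and lower in class 9, at 47.7 and 36.0 CPM. The class values of fetal replicate 1 rest on as few as 4 reads at Cldn9 in class 4, so small differences could not be resolved.

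The largest falls, besides the first region near Pgr and the one near Pxylp1, were at Rnf224, Unc5b and Slc4a9. Rnf224, a RING finger gene, had 0.686 and 0.851 CPM in fetal libraries, from 1 and 3 reads, and 40.0 and 41.0 CPM in adult libraries (log2 fold change -5.59, SE 0.47, and -7.31 when reads were counted by their midpoint, both sizes set by very few fetal reads). A region 0.910 kb from Unc5b, a netrin receptor, had 2.74 and 2.27 CPM in fetal and 58.5 and 53.0 CPM in adult libraries (log2 fold change -4.50, SE 0.35). The adult libraries were close to each other in both, and the fetal libraries were near the limit of detection. At a region 1.42 kb from Slc4a9, an anion transporter and its nearest gene, the log2 fold change was -4.20 (SE 0.50) from 5 and 2 fetal reads, and moved to -5.51 without fetal replicate 1 and -2.98 without fetal replicate 2. All 5 largest falls had edgeR adjusted p-values of 8.88e-10 or less. The fetal libraries held only 10 nuclei of classes 2 and 11, where these 5 regions were high.

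Among adult nuclei, many member promoters differed between lineages. Reads of the 2 adult libraries were summed over classes 1 and 8 (basal-like), 3 and 7 (luminal progenitor-like) and 2 and 11 (mature luminal-like), and 13 members had too few reads to test. By edgeR, 123 of 473 tested members were higher and 119 lower in classes 1 and 8 than in classes 3 and 7, where 11.9% of 14639 promoters were called, 6.15% higher and 5.8% lower. In classes 2 and 11 against the same classes 3 and 7, 148 were higher and 107 lower, where 10.8% of all were called, 4.73% higher and 6.07% lower. The 2 comparisons share their reference sums, and they share the adult libraries with the stage comparison. The class pair with the highest mean was 1 and 8 at 149 members (31.5%, against 36.0% of all tested promoters), 3 and 7 at 107 (22.6% against 29.0%) and 2 and 11 at 217 (45.9% against 35.1%). The highest pair was at least 2 times the next at 253 members (53.5%) and at 11.2% of all tested promoters: 103 in classes 1 and 8, 29 in 3 and 7, and 121 in 2 and 11. The choice of members by co-accessibility in these nuclei favours such differences, as it does the counts called above.

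**Figure D4:**
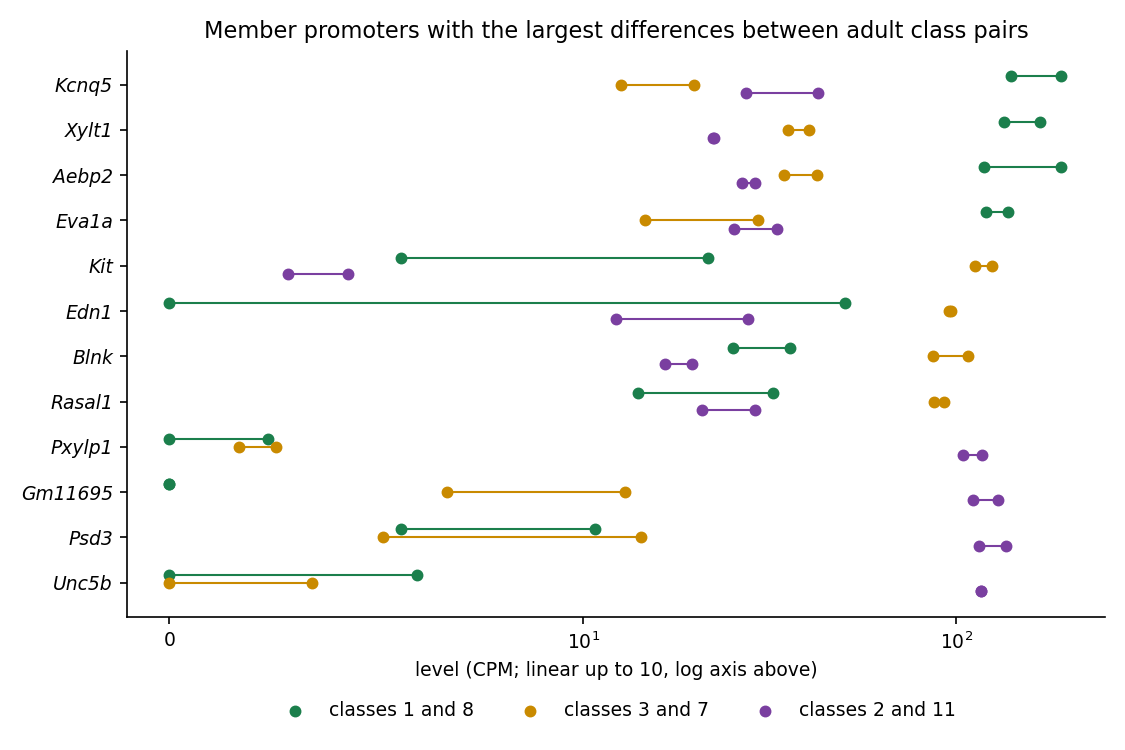
Levels (CPM, linear up to 10 and logarithmic above) of 12 members, with 1 point for each adult library: for each adult class pair, the 4 with the highest ratio to the next pair among members averaging 50 or more reads per sum. For each gene both points of the leading pair lie to the right of all others, which the choice by that ratio favours.

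Members led by the basal-like classes included Kcnq5, a potassium channel, Xylt1, which starts proteoglycan sugar chains, Eva1a, and a region 0.626 kb from Aebp2, a cofactor of Polycomb complex 2, its nearest gene. In adult replicates 1 and 2, Kcnq5 had 139.9 and 190.3 CPM in classes 1 and 8, 19.8 and 12.6 CPM in classes 3 and 7, and 27.3 and 42.6 CPM in classes 2 and 11. Its log2 fold change, classes 1 and 8 over 3 and 7, was 3.37 (SE 0.32, edgeR adjusted p = 1.62e-12). For Xylt1, Aebp2 and Eva1a this was 2.02, 1.96 and 2.55. Adult classes outside these sums had reads as well. In adult class 10, Kcnq5 had 26.0 and 13.7, Xylt1 31.3 and 47.8, Aebp2 10.4 and 27.3, and Eva1a 20.8 and 54.6 CPM. In adult classes 6 and 14 respectively, Kcnq5 had 26.9 and 29.2, then 117 and 147 CPM. Xylt1 had 89.5 and 131, then 67.1 and 32.6 CPM. Aebp2 had 35.8 and 21.9, then 67.1 and 73.3 CPM. Eva1a had 17.9 and 29.2, then 16.8 and 81.4 CPM, and each of these values came from 1 to 18 reads. Their stage log2 fold changes, fetal over adult, were 0.04 (Kcnq5), 0.21 (Xylt1), 0.80 (Aebp2) and 0.39 (Eva1a), and of these Aebp2 alone passed that test. Cxcl14 and Col4a2 had the same leading pair: Cxcl14 was at 104 and 145 CPM in classes 1 and 8 and at 10.8 to 17.9 CPM in the other sums.

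Of the listed basal genes, Krt14, the keratin of basal epithelium, had 2 member regions. The one at the outer 5′ end, named after its values were seen, had 9 links and 148 and 112 CPM in classes 1 and 8, against 6.89 and 7.56 CPM in classes 3 and 7 and 3.59 and 6.33 CPM in classes 2 and 11. The inner one, chosen by its listed transcript start, had 4 links and 115 and 51.5 CPM, against 20.7 and 11.8 and then 2.87 and 4.03 CPM. Both regions were higher in classes 1 and 8 in each adult library, as the use of Krt14 as a marker of these classes favours. Both were also higher in fetal libraries, by 1.08 (SE 0.22) and 0.96 (SE 0.25) on the log2 scale. At the inner region this rise of the library sums was not seen between basal-like classes. Fetal class 4 had 24.7 and 38.5 CPM there, from 5 and 23 reads, and fetal class 9 had 52.0 and 42.0 CPM. Adult class 1 had 99.9 and 57.7 CPM and adult class 8 had 132 and 37.8 CPM. The call at the inner region was lost without adult replicate 2 (edgeR adjusted p = 0.0556) and when reads were counted by their midpoint (0.0680). Sparc, a matricellular glycoprotein, rose in the same 2 comparisons, by 3.45 (SE 0.59) in classes 1 and 8 and by 1.13 (SE 0.26) in fetal libraries. The first size rests on few reference reads, 6 in class 3 of each adult library and 0 and 2 in class 7. In adult libraries the stromal-like class 6 was also open at Sparc, at 53.7 and 72.9 CPM, against 81.7 and 32.7 CPM in class 1. Col17a1, a collagen of hemidesmosomes, had 95.1 and 57.4 CPM in classes 1 and 8 and at most 0.840 CPM in each other sum.

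Members led by the luminal progenitor-like classes included Kit, Edn1, Blnk and Rasal1. These 4 were picked by their ratio to the next class pair, so their lead is no separate result. Kit, a receptor tyrosine kinase on luminal progenitors, had 112 and 124 CPM in classes 3 and 7, 5.596 and 21.5 CPM in classes 1 and 8, and 4.31 and 2.88 CPM in classes 2 and 11. Both values of classes 3 and 7 lay above all others, which the use of Kit as a marker favours. Kit was also higher in fetal libraries, at 64.4 and 78.0 CPM against 46.6 and 42.6 CPM (log2 fold change 0.70, SE 0.18, edgeR adjusted p = 0.00349), a call lost without fetal replicate 2 (0.144). By class, the fetal luminal progenitor-like classes were not above the adult ones. Kit had 47.7 and 93.4 CPM in fetal class 9 and 133 and 81.2 CPM in fetal class 5. Adult class 3 was above these, at 143 and 155 CPM, and adult class 7 had 94.5 and 96.3 CPM, between the 2 values of class 5. The 13 links of Kit reached 225 kb downstream and 114778 bases upstream with no other promoter region between. Of the linked regions, 6 were higher in fetal and 7 in adult libraries. Edn1, the peptide endothelin 1, was at 96.5 and 95.8 CPM in classes 3 and 7, but at 0 and 50.3 CPM in classes 1 and 8, where the libraries differed widely. The region nearest to Blnk, an adaptor of B cell signalling, lay 1.30 kb from it and was at 108 and 86.5 CPM in classes 3 and 7, with a stage log2 fold change of -1.28 (SE 0.25). Rasal1, a Ras GTPase-activating protein, was at 87.0 and 92.4 CPM there, with a stage log2 fold change of 0.27 (SE 0.20).

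All 4 listed luminal progenitor genes, among them the marker Kit, were lower in classes 1 and 8 than in classes 3 and 7, and 3 of the 4 were also lower in classes 2 and 11. Of the 473 tested members, 119 and 107 were lower in these 2 comparisons, and of all tested promoters 5.8% and 6.07%. Lcn2, an antimicrobial protein that binds iron carriers, had 216 and 194 CPM in classes 3 and 7, 134 and 109 CPM in classes 1 and 8, and 5.75 and 2.88 CPM in classes 2 and 11. Its stage values overlapped, at 92.5 and 92.7 CPM in fetal and 103 and 81.9 CPM in adult libraries. The score of 0.707 joined it to a region 3.67 kb away within the span of the gene, with a log2 ratio of fetal to adult level of -1.56. Wfdc18, a small secreted protein, had 98.2 and 105 CPM in classes 3 and 7 and at most 11.97 CPM in the other sums, and it rose in fetal libraries by 1.10 (SE 0.19). The exception was Spdef, an ETS factor of secretory cells, at 33.1 and 46.6 CPM in classes 2 and 11 and 5.17 and 11.8 CPM in classes 3 and 7, with 0 reads in classes 1 and 8. Its fall in fetal libraries (log2 fold change -1.28, SE 0.38) was -0.79 without fetal replicate 1 (edgeR adjusted p = 0.171), -2.86 without fetal replicate 2 and -1.10 without adult replicate 2 (0.124).

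Members led by the mature luminal-like classes were the most numerous, and several were nearly closed in the basal-like and luminal progenitor-like sums. In adult replicates 1 and 2, Pxylp1 had 104 and 117 CPM in classes 2 and 11 and at most 2.58 CPM in the other sums. Gm11695 had 129 and 111 CPM there, 12.9 and 6.72 CPM in classes 3 and 7, and 0 reads in classes 1 and 8. Psd3, an exchange factor for small ARF GTPases, had 115 and 136 CPM there and 5.17 to 14.3 CPM in the other sums, and Unc5b had 116 CPM in both libraries and at most 5.98 CPM in the other sums. In all 4 both libraries of classes 2 and 11 lay above every other sum. The unnamed adult classes 10 and 14, outside these sums, had reads as well: in classes 10 and 14 respectively Psd3 had 88.6 and 109, then 33.5 and 40.7 CPM, and Pxylp1 had 52.1 and 68.3, then 33.5 and 65.1 CPM. Gm11695 had 31.3 and 13.7, then 101 and 48.8 CPM, and Unc5b had 67.7 and 34.1, then 201 and 65.1 CPM, each value from 2 to 17 reads. In adult class 6, Gm11695 had 53.7 and 0 CPM, from 6 and 0 reads, and Pxylp1 and Psd3 had 0 CPM in both libraries. By edgeR all 4 were higher in classes 2 and 11 than in classes 3 and 7, with log2 fold changes of 3.60 (SE 0.36) at Gm11695 and 3.67 (SE 0.35) at Psd3, while Pxylp1 and Unc5b had too few reads in the reference for a size to be given. Their stage log2 fold changes, fetal over adult, were -5.35 (Pxylp1), -3.65 (Gm11695), -1.62 (Psd3) and -4.50 (Unc5b). Areg, a ligand of the EGF receptor that mediates hormone-driven duct growth, was the listed mature luminal gene. It had 77.6 and 86.9 CPM in classes 2 and 11 and 23.3 to 33.6 CPM in the other sums (log2 fold change over classes 3 and 7 1.69, SE 0.31, edgeR adjusted p = 3.79e-05). In fetal libraries it had 19.2 and 21.8 CPM, against 51.5 and 54.9 CPM in adult libraries (log2 fold change -1.35, SE 0.23), and all 7 linked regions were higher in adult libraries.

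Other promoters were open in both luminal pairs of classes. The 4 listed shared luminal members, which were also among the 6 luminal markers scored, Krt8, Krt18 and the tight junction genes Cldn3 and Cldn4, were all lower in classes 1 and 8 than in classes 3 and 7, and none differed by the test between classes 2 and 11 and classes 3 and 7. Of the 473 tested members, 119 were lower in the first comparison and 255 differed in the second. Over all tested promoters the shares were 5.8% and 10.8%. Cldn3 had 36.4 and 16.8 CPM in classes 1 and 8, 254 and 266 CPM in classes 3 and 7, and 303 and 264 CPM in classes 2 and 11. The latter 2 pairs overlapped, and the log2 fold change of classes 1 and 8 was -3.49 (SE 0.26, edgeR adjusted p = 2.76e-17). Between the stages Cldn3 overlapped, at 216 and 187 CPM in fetal and 239 and 203 CPM in adult libraries. Krt8 passed the stage test (log2 fold change -0.39, SE 0.14, edgeR adjusted p = 0.0377) and lost the call without fetal replicate 1 (0.182), fetal replicate 2 (0.108) or adult replicate 1 (0.347).

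Among the other lists, both fetal and oncofetal members rose in fetal libraries: Sox11, given above, and Hmga2, an architectural chromatin protein, at 83.0 and 69.2 CPM against 31.2 and 28.5 CPM (log2 fold change 1.33, SE 0.20). Such a rise was called at 113 of all 486 members and at 10.5% of all tested promoters. Egfr, the receptor of Areg, was at 10.8 and 14.4 CPM in classes 2 and 11 and at 92.3 to 117 CPM in the other adult sums, while its stage values, 79.5 and 71.8 CPM in fetal and 65.4 and 59.3 CPM in adult libraries, did not pass the test (edgeR adjusted p = 0.274). Cd44, the hyaluronan receptor, was lower in classes 2 and 11, at 59.7 and 60.5 CPM against 110.3 and 107 CPM in classes 3 and 7. Maff, a small Maf factor, lay between 108 and 174 CPM in every adult sum and between 120 and 141 CPM in every library, and passed none of the 3 tests.

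By single class, the highest level fell most often in class 2, at 103 members (21.2%, against 3.67% of all promoters). It fell in class 8 at 55 members (11.3% against 9.14%), class 11 at 53 (10.9% against 7.48%), class 1 at 50 (10.3% against 5.60%) and class 7 at 46 (9.47% against 3.30%). The share was below that of all promoters in class 14 (34 members, 7.00% against 12.3%), class 12 (27, 5.56% against 6.57%), class 10 (25, 5.14% against 7.80%) and class 13 (24, 4.94% against 12.9%). It was also below in class 5 (19, 3.91% against 4.87%), class 4 (15, 3.09% against 6.29%), class 3 (12, 2.47% against 5.31%) and class 9 (8, 1.65% against 1.78%). Scaled to all reads of the nuclei, classes 3 and 7 together led at 91 members in place of 58. Class 6, the stromal-like class, led at 15 members (3.09%, against 13.04% of all promoters). The share of promoter reads that fell in members was highest in class 2, 3.49%, and lowest in class 6, 2.36%. Small classes have noisier levels, so that a lead in classes 6, 10, 13 or 14 rests on fewer reads. The largest leads over the next class among members with at least 20 reads in the class were at Dpt, a dermal matrix protein, in class 6 (179 CPM against 65.2 CPM in class 8), and at Irx4, a homeobox factor, in class 8 (59.0 CPM against 21.6 CPM in class 1). Foxa1, a pioneer factor of luminal cells, had its highest level in class 13, at 398 CPM against 228 CPM in class 11.

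**Figure D5:**
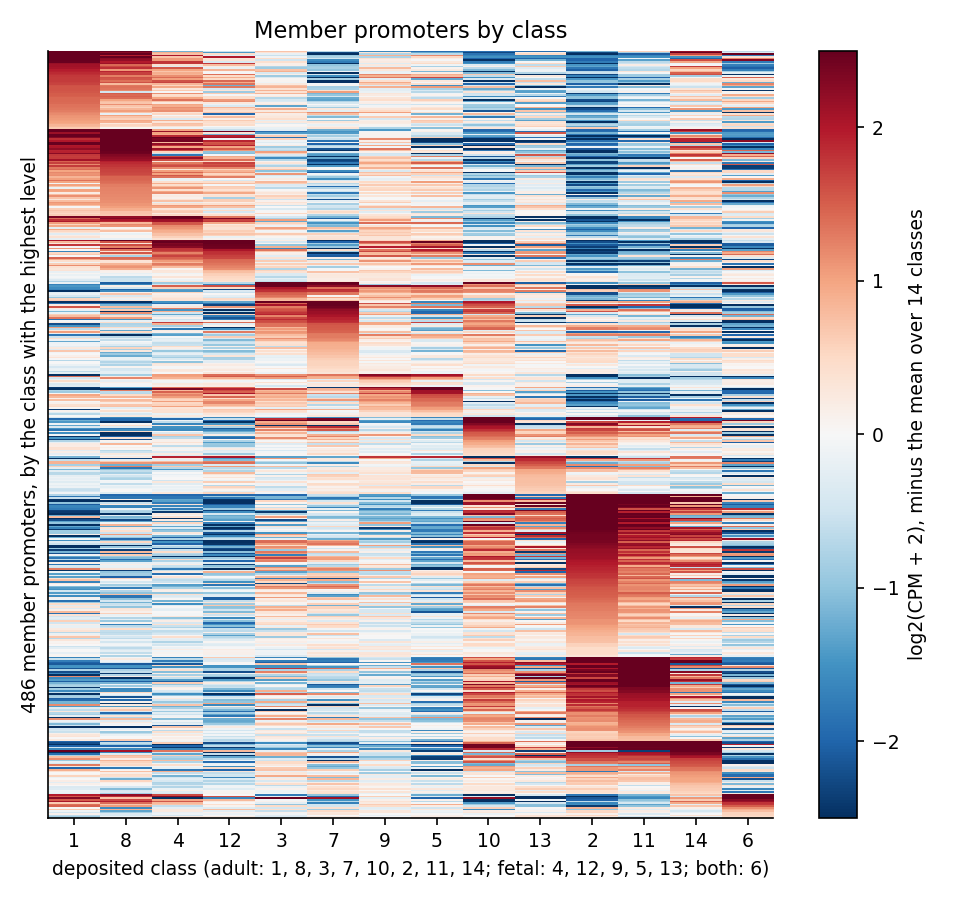
Rows are the 486 members ordered by the class in which their level was highest, and columns are the 14 classes; colour is log2(CPM + 2) minus the row's mean over classes. The block highest in classes 2 and 11 is the largest and is mostly low in classes 1, 8, 4 and 12, and members led by classes 1 and 8 are mostly low in class 2.

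Fetal classes 4 (basal-like) and 9 (luminal progenitor-like) were set beside the adult class sums, with which they share no nuclei. They are not an independent check, since the members were chosen by a score from nuclei of these same libraries. The names of the fetal and adult classes also rest on the same markers. This comparison was chosen after other values were seen and has no test. Of 383 members averaging 10 or more reads over the fetal sums, 18 were at least 2 times higher in class 4 in both fetal libraries and 22 in class 9 (4.70% and 5.74%, against 1.91% and 2.16% of all promoters). Among the 103 members at least 2 times higher in adult classes 1 and 8 than in the next pair, 96 had enough fetal reads, of which 17 were higher in class 4 and 0 in class 9. Among the 29 members so led by classes 3 and 7, 22 had enough reads, with 0 higher in class 4 and 5 in class 9, and among the 121 so led by classes 2 and 11, 48 had enough, with 0 and 5. The same shares were not counted for all promoters so led by an adult pair, so these counts cannot be called particular to the members. Cav1, the coat protein of caveolae, had 247 and 234 CPM in class 4 and 56.4 and 88.8 CPM in class 9. Pou2af1, a lymphoid transcription coactivator, had 99.0 and 107 CPM in class 4 and 8.67 and 20.7 CPM in class 9. Cldn3 had 19.8 and 51.8 CPM in class 4 and 325 and 260 CPM in class 9, and it was among the luminal markers scored.

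Sequence features were also counted by leading class pair, as a description without a test. Sequence was at hand for 33 of the 121 members at least 2 times higher in classes 2 and 11 than in the next pair, and for 46 of the 103 so led by classes 1 and 8. Of the 33, 69.7% had a CpG ratio under 0.5 and 36.4% held a GC box, and of the 46 it was 32.6% and 60.9%. The AP-1 word occurred in 18.2% and 6.52% of these, and the TEAD word in 12.1% and 21.7%. Over all matched promoters the 4 shares were 20.2%, 66.2%, 5.66% and 11.5%. Of the 29 members so led by classes 3 and 7, 8 had sequence, too few to describe. Of the promoters shown above, Emp1 (CpG ratio 0.31), Cldn3 (0.35) and Lcn2 (0.13) were low, and Sox11 (0.82), Areg (0.82), Cxcl14 (0.77) and Kit (0.62) were above 0.5.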

How the data were processed

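Nuclei of 2 fetal and 2 adult libraries were profiled. The deposited read positions were placed on mm10, the authors' build per the submitters' processing notes, which name Bowtie2, MACS2 and bedtools without versions or settings. Reads were counted here (counts per region, overlap of at least 1 base) for the 7846 nuclei the authors kept; the deposited count of reads per nucleus equalled the number of listed reads in every nucleus. Co-accessibility is the authors' deposited score, from Cicero per the file's name; its settings and the nuclei it used are not given in the sources used here. The 7846 columns of gene scores name no sample and were not used.

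Promoters with a mean of at least 10 reads were tested with edgeR 4.0.16 (R 4.3.3) by the quasi-likelihood test with TMM factors and Benjamini-Hochberg adjustment over all promoters tested, per library for stage and per adult library and class pair (6 sums) for lineage. The SE is the log2 fold change over the square root of F. P-values measure the spread between 2 libraries per group. DESeq2 1.42.0 was an alternative. The remaining work used Python 3.11.15, numpy 2.4.6, pandas 2.3.3 and matplotlib 3.10.9. The stage fit was tried on simulated counts with the same assumed spread for all promoters, and the lineage fit was not. No doublet caller was run. Promoter regions held 1453269 to 4268391 reads per library, which limits the precision of low levels.

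Named were the 10 members with the most links; the 5 largest called rises and falls between non-overlapping stages with a mean of at least 50 reads; for each adult class pair, the 4 highest ratios to the next pair at that depth; and members at a listed gene's transcript start. A class was named when its share of raised markers (log2 level at least 0.5 above the other classes) led by 25 percentage points, a margin set after the markers were seen. The members, lists and class pairs were chosen with earlier results of these data known. Replicate numbers pair the stages in name alone (correlation of deviations 0.06); the class sums of an adult library come from the same animals (0.03 to 0.06).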

Additional observations from a re-analysis of the deposited data

How the results depend on the processing

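The number of members follows the cutoffs directly: it was 1000 at a score above 0.2, 48 above 0.4, 855 with 2 or more distal regions and 208 with 5 or more. In the same order, members higher in fetal libraries numbered 216, 8, 201 and 53, and higher in adult libraries 373, 32, 339 and 105. Members higher in classes 1 and 8 than in 3 and 7 numbered 206, 14, 207 and 67, and lower 215, 12, 189 and 56. Members lower in classes 2 and 11 numbered 211, 7, 182 and 44, and higher ones 26 above 0.4 and 82 with 5 or more regions. Those higher in classes 2 and 11 at a score above 0.2 or with 2 or more regions are not given. Where adult sums had to average 50 reads or more, fewer promoters were tested, and the counts were 46 higher and 64 lower in classes 1 and 8 and 74 higher and 49 lower in classes 2 and 11. The share called over all promoters under that filter is not given, so these counts describe the setting alone. Scaled to all reads of the nuclei in place of reads in promoters, 91 members had class 3 or class 7 as their highest single class, against 58; the cause was not tested.

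Leaving out each library in turn gave 89 to 110 members higher in fetal and 181 to 207 higher in adult libraries. DESeq2 called 99 and 203 for stage. Such refits were not possible for the adult class sums, which would leave no residual degrees of freedom. With the replicate block the counts were 115 and 222 for stage, 118 and 115 for classes 1 and 8, and 149 and 107 for classes 2 and 11, and no named call changed. Over all promoters the block gave 2076 and 2218 for stage, 816 and 785 for classes 1 and 8, and 649 and 880 for classes 2 and 11. For the other refits the counts over all promoters are not given, so their counts of members describe the settings alone. Of the 43 named members, 43 kept their stage call and direction under DESeq2 size factors and with no filter, 41 without scaling factors and by read midpoint, and 40 under DESeq2, which lost Cxcl14, Krt8 and Spdef. Krt8 was also lost without scaling factors and, of the 42 tested, with the filter of 50 reads. The number kept was 37 without fetal replicate 1, 40 without fetal replicate 2, 39 without adult replicate 1 and 34 without adult replicate 2. The calls lost there were Krt8, Spdef, Emp1, Kit and Krt14, as given above, and the calls gained were 3930402G23Rik without adult replicate 1 and Eva1a without adult replicate 2 (edgeR adjusted p = 0.0491). The stage values that changed sign were not called in the reported fit. Col17a1 gave 0.00697 without scaling factors, 0.0836 by read midpoint, and -1.49 to 0.51 with 1 library left out. With 1 library left out in turn, the values ran from -0.31 to 0.14 at Tnni1, from -0.14 to 0.23 at Cldn4, from -0.28 to 0.48 at Kcnq5, from -0.024 to 0.52 at Xylt1, from -0.16 to 0.17 at Lcn2 and from -0.021 to 0.21 at Maff. Depth limits the values of single classes in a library, which rest on as few as 23 nuclei (class 6 of fetal replicate 1) among those printed.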

Other observations

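Several members lay within the span of mammary genes and not at a listed transcript start, and their values, picked after they were seen, are given here without explanation. The region in Foxa1 had 13 links, with 91.9 and 99.6 CPM in fetal and 167 and 141 CPM in adult libraries. The region in Wnt4, a ligand that acts downstream of progesterone, had 10 links, with 20.6 and 24.4 CPM in fetal and 79.4 and 59.6 CPM in adult libraries. The region in Sox10, a neural crest and mammary stem cell factor, had 57.6 and 48.8 CPM in fetal and 20.9 and 18.8 CPM in adult libraries. The region in Lamb3, a chain of laminin 332, had 12 links, with 42.0 and 51.5 CPM in adult classes 1 and 8 and at most 2.52 CPM in the other adult sums.

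A group of 5 members on chr8:70081477-70891945, at Hapln4, Fkbp8, Lsm4, Arrdc2 and Slc5a5, shared distal regions, so they are not independent. By edgeR 4 of the 5, picked after their values were seen, were higher in adult libraries, as were 221 of all 486 members and 11% of all promoters tested. Among class 12, left unnamed, the member with the largest lead was Gas1, a membrane protein that binds hedgehog ligands, at 244 CPM against 165 CPM in class 4. In class 11 it was Wdr64, at 70.1 CPM against 36.6 CPM in class 13.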
